A study of Mus musculus with 4 samples.

Results

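A gene desert is a long stretch of a chromosome without protein-coding genes. In mouse salivary gland organoids (mSGOs), 2755 open regions lay in such deserts, on the autosomes, with their midpoint outside every protein-coding gene and over 100 kb from the nearest end of any. They made up 8.78% (95% Wilson interval 8.47 to 9.10, counting error only) of 31385 autosomal regions, and the whole list held 32011. A further 7 regions met the distance rule but had a −log10 p over 300 and were kept apart. Of the other autosomal regions, 16028 lay inside protein-coding genes, 3730 within 1 kb of one and 8865 at 1 to 100 kb.

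The regions came from bulk ATAC-seq, in which the Tn5 transposase cuts DNA where chromatin is open, of organoids grown from submandibular glands of non-irradiated C57BL/6 mice. The labels list 4 samples, 2 at passage 1 and 2 at passage 2. In each passage, the mouse of 1 sample is given as 12 weeks old and that of the other as 3 months old. All were cultured in Matrigel in WRY medium, which holds EGF, FGF2, N2, insulin, dexamethasone, the ROCK inhibitor Y27632 and media conditioned with R-spondin1 and Wnt3a, and the study's methods give 4 mice. The deposited list is pooled over samples. No sample had a value of its own, so passages and ages could not be compared, replicate spread and depth are unknown, and every value below is a description without a test. A bulk list also cannot tell whether a region was open in many cells or in few. A region lay in or within 1 kb of 11 of 13 epithelial marker genes, among them Epcam, Cdh1, Krt5 and Krt14, with Krt18 and Krt7 at 0. This held for 0 of 6 immune, 2 of 6 endothelial (Pecam1 and Tek) and 1 of 6 fibroblast marker genes (Pdgfra). Of all 21883 protein-coding genes, 52.4% had such a region. The 13 genes counted as epithelial include Itgb1 and Cd44, and the study associates Cd44 with mesenchymal features too.

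Deserts are known to hold enhancers, short stretches bound by transcription factors that act on promoters over long distances, and long noncoding RNA (lncRNA) and microRNA genes. Many of the deserts studied in mammals flank genes for developmental transcription factors and signalling molecules. Other deserts are long, have few known regulatory elements and flank genes used mainly in neurons.

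The few desert regions that met the start window of an lncRNA gene, in whole or in part, are shown first, since the sequence of these windows could be read. RefSeq start windows (GRCm38.p6) ran from 250 bases before to 50 bases after each start. In deserts, 56 of 1704 lncRNA genes with a window had a region there (3.29%, 95% Wilson interval 2.54 to 4.24), against 294 of 4138 lncRNA genes at 1 to 100 kb from a coding gene (7.10%, 6.36 to 7.93). The 55 desert regions concerned were 2.00% of all, with folds over the local background from 4.18 to 20.2 and a median of 6.54. The windows below are cut to the part inside the region. They are those of the region with the highest fold and of 2 starts in the desert that holds the microRNA gene Mir205. Also shown are starts in the deserts flanked by Hmga2, Fgfr2 and Jag1. The regions at these starts lay 145, 129 and 380 kb from their nearest coding gene. In the Hmga2 desert that gene was Msrb3, with Hmga2 at 160 kb. Capitals mark letters searched for on both strands: AP-1 (TGACTCA or TGAGTCA), RUNX (AACCACA), Grainyhead (AACCNGT), TEAD (CATTCC), FOX (TGTTTAC) and the core of CTCF (AGGTGGC or AGGGGGC).
Gm26901, chr1:7398047-7398346, minus strand: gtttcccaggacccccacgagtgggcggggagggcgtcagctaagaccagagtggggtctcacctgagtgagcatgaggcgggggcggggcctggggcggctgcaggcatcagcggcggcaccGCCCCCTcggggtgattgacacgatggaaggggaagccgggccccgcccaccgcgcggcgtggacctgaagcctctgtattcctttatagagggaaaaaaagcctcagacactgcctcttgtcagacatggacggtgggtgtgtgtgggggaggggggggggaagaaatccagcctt
4930471E19Rik, chr10:120636058-120636357, minus strand: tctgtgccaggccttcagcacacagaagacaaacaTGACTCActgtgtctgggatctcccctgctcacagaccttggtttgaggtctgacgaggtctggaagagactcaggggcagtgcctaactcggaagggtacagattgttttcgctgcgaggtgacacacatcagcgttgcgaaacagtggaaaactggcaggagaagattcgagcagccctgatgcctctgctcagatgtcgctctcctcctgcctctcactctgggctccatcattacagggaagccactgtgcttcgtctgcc
Gm33323, chr7:129764479-129764676, plus strand: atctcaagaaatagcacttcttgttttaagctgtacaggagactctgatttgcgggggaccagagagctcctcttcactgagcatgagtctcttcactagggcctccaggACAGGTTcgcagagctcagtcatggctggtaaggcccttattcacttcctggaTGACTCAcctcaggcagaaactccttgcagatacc
Gm33398, chr7:129764621-129764905, minus strand: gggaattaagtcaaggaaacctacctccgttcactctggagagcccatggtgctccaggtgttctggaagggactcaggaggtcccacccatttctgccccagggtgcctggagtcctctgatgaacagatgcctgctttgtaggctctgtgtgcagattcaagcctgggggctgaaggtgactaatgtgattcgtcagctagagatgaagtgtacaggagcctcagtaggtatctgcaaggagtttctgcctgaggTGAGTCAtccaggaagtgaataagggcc
Gm31870, chr1:193655266-193655565, plus strand: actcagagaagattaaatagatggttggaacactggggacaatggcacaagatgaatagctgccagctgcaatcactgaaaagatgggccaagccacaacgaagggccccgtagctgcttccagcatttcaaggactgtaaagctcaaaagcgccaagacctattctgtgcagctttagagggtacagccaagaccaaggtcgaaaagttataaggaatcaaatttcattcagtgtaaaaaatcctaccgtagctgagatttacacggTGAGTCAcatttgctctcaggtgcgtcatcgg
Gm14062, chr2:137876816-137877058, minus strand: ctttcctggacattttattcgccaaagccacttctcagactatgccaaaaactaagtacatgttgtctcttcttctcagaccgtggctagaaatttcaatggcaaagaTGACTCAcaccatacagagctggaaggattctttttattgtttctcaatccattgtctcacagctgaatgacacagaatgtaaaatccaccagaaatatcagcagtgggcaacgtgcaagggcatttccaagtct
Mir205hg, chr1:193510161-193510373, minus strand: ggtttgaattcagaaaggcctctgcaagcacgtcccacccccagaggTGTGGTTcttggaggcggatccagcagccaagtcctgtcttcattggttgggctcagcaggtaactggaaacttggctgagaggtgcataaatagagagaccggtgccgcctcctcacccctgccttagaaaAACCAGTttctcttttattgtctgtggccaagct

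The windows shown were picked after their values were seen, so their letters do not stand for those of all windows. The AP-1 letters stood in the windows at 4930471E19Rik, Gm33323, Gm33398, Gm31870 and Gm14062. The Gm33323 window also held Grainyhead letters. Gm33323 and Gm33398 start in opposite directions within 1 region between Wdr11 and Fgfr2, the FGF receptor gene, and share the same AP-1 letters. The Mir205hg window, at the host transcript of Mir205, held RUNX and Grainyhead letters, and that of Gm26901 held the CTCF core. AP-1 is a dimer of FOS and JUN proteins, and RUNX and Grainyhead factors act in epithelial development.

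Shares of windows with each motif were taken over whole windows, not cut to the region, so letters outside the region count too. Over all 56 desert windows with a region, 11 held AP-1 letters (19.6%, 95% Wilson interval 11.3 to 31.8). Beside this stood 5.76% of 1648 lncRNA windows in deserts without a region and 5.20% of all 32851 start windows. Grainyhead letters stood in 19.6% of desert windows with a region, beside 10.3% and 8.43%, and RUNX letters in 12.5%, beside 6.43% and 5.27%. For all of these the share was higher where a region was present, although the interval for RUNX (6.19 to 23.6) included the 6.43% of windows without a region, and that for Grainyhead (11.3 to 31.8) met the one without a region (8.88 to 11.8). TEAD letters ran the other way, at 8.93% (3.87 to 19.3), beside 17.1% and 14.7%, both within that interval. FOX letters stood in 1.79% of desert windows with a region, beside 4.73% and 3.65%. The CTCF core stood in 10.7%, beside 7.58% and 16.0%. SOX letters (AACAAT) stood in 23.2%, beside 18.6% and 10.7%, and ETS letters (CTTCCT) in 35.7%, beside 35.4% of each of the other sets. The GC form of the KLF and SP motif (GGGCGG) stood in 14.3%, beside 5.46% of desert windows without a region and 35.7% of all windows, and its CACC form (CCACCC) in 14 of 56, beside 20.7% and 31.5%. NF-Y letters (CCAAT) stood in 41.1%, beside 39.4% and 37.4%, and AP-2 letters (GCCNNNGGC) in 17.9%, beside 6.13% and 16.6%. For AP-1, for AP-2 and for the GC form of the KLF and SP motif (7.42 to 25.7), the 95% Wilson interval lay above that of desert windows without a region, which ended at 6.996%, 7.39% and 6.67%. Setting intervals side by side is no test. The 12 motifs were searched after the data were seen, and the intervals make no allowance for their number. The 56 windows are not all independent. Those of Gm33323 and Gm33398 overlap and count the same AP-1 letters, and those of Gm33782 and Gm40748 the same Grainyhead letters. Several of these strings can overlap in a sequence, and the base composition of the windows differed. Their median GC content was 48.7% in deserts with a region, 45.0% in deserts without and 52.7% over all windows, and its part in the shares was not tested.

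**Figure D1:**
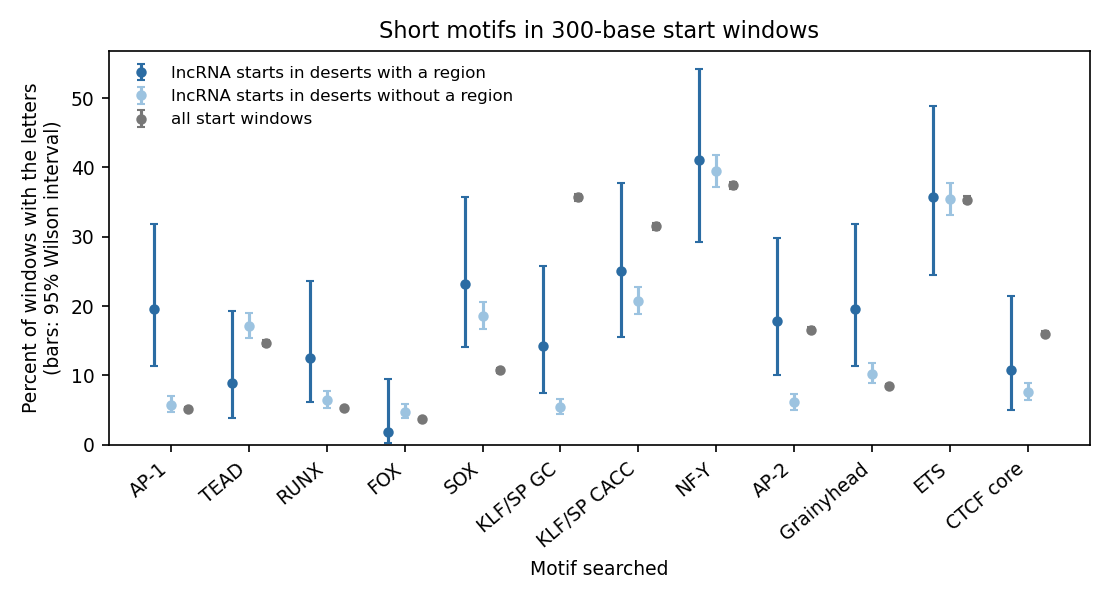
Percent of start windows that hold each motif (y axis) for the 12 motifs searched (x axis), with 95% Wilson intervals for 56 lncRNA starts in deserts with a region, 1648 without and all 32851 windows. AP-1 is at 19.6% in the first set and at 5.76% and 5.20% in the others, and the intervals of the 56 windows are wide.

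Open regions thinned out with distance from genes. Within 1 kb outside protein-coding genes there were 111.6 regions per Mb, and inside genes 16.3. The density was 13.8 per Mb at 1 to 10 kb, 12.5 at 10 to 50 kb and 9.44 at 50 to 100 kb. It went on falling inside the deserts, from 7.09 at 100 to 200 kb and 4.41 at 200 to 300 kb to 3.43 at 300 to 500 kb, 1.71 at 500 to 1000 kb and 0.590 beyond. Thus most desert regions lay near the edges of deserts: 1424 were at 100 to 200 kb and 42 over 1000 kb from a coding gene. Taken between the outermost coding genes of each autosome, deserts were 28.0% of the sequence with 8.74% of the regions, or 4.02 regions per Mb against 16.3 in all other sequence.

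**Figure D2:**
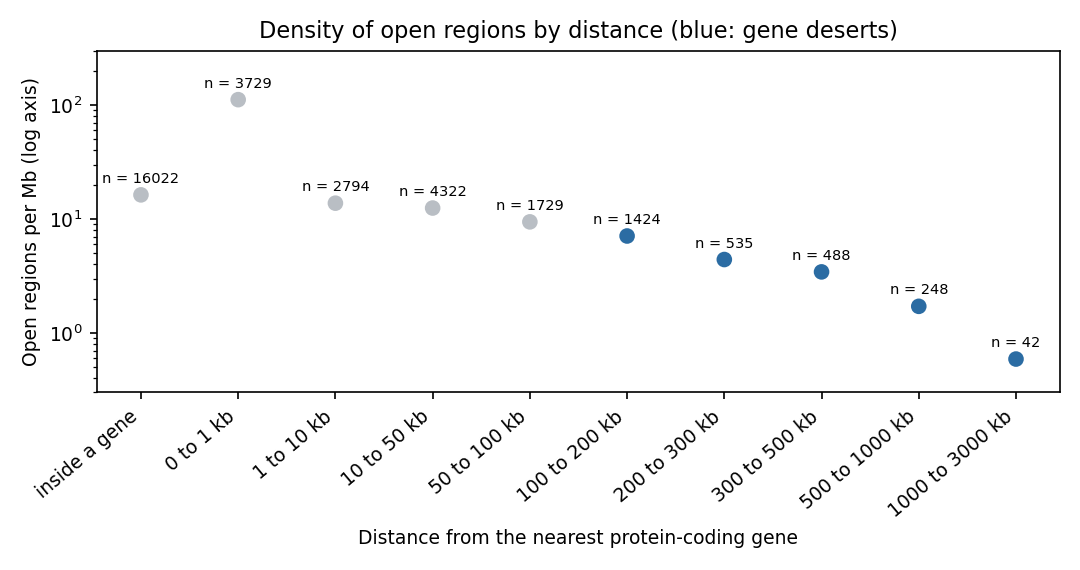
Open regions per Mb of autosomal sequence (y axis, log scale) by distance from the nearest protein-coding gene (x axis), with the number of regions in each bin; blue points are desert bins. The density is 7.09 per Mb at 100 to 200 kb and 0.590 at 1000 to 3000 kb.

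Although regions became sparse with distance, their median fold was not lower far from genes than near the desert edge. The fold is the signal at the strongest summit over the local background. Its median was 7.14 at 100 to 200 kb, 7.03 at 200 to 300 kb, 7.52 at 300 to 500 kb, 7.56 at 500 to 1000 kb and 8.58 in the 42 regions beyond. The share of regions with the highest irreproducible discovery rate (IDR) score, 1000, was 42.1%, 40.2%, 43.6%, 46.0% and 54.8% in the same bins. This score ranks agreement between replicates, but which replicates were compared is not given in the sources used here. Over all desert regions the score was 1000 in 42.5% (95% Wilson interval 40.6 to 44.3), below the 45.4% of all other autosomal regions. That share was 59.2% for regions within 1 kb of a gene, 44.1% inside genes and 42.1% at 1 to 100 kb.

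Desert regions resembled regions closer to genes in size and shape. Their width had a median of 396 bp, against 391 bp at 1 to 100 kb and 402 bp for all other autosomal regions, and 30.1% had a single summit, against 29.9%. The median fold was 7.19 (quartiles 5.78 and 9.65), against 7.01 at 1 to 100 kb and 7.99 within 1 kb. High folds were somewhat more frequent: 105 desert regions (3.81%) reached a fold of 15, against 2.36% at 1 to 100 kb, 2.79% inside genes and 5.98% within 1 kb. These 105 were spread over 93 deserts.

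**Figure D3:**
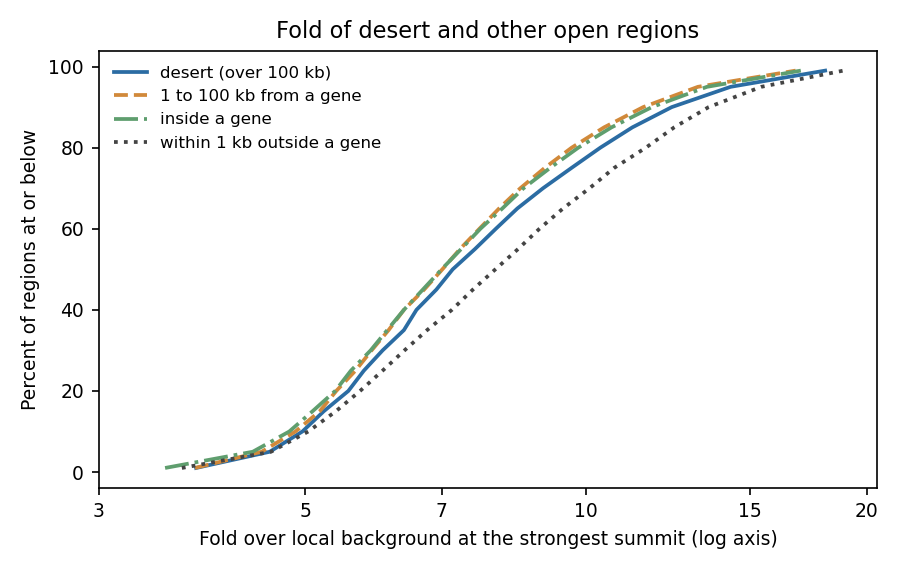
Cumulative percent of regions (y axis) at or below each fold over the local background (x axis, log scale) for desert regions and for the 3 other classes. The desert curve lies to the right of the curves for regions inside genes and at 1 to 100 kb, with a median of 7.19 against 7.01 at 1 to 100 kb, and, from the 5th to the 99th percentile, to the left of the curve for regions within 1 kb, with a median of 7.99.

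Desert regions were unevenly shared among deserts. Of 1393 deserts, each a gap of over 200 kb between neighbouring coding genes, 665 (47.7%) held a region and 199 (14.3%) held 5 or more. Single regions were found in 211 deserts. At the other end, 69 deserts held 10 or more, and their regions numbered 951. Only 121 deserts (8.69%), with 14.5% of the desert sequence, were needed to reach 50% of the regions. The remaining 18 regions lay before the first coding gene of a chromosome, 9 of them on chromosome 16. Per chromosome, the share of regions that lay in deserts ran from 2.43% (21 of 864) on chromosome 19 to 17.1% (275 of 1606) on chromosome 13, which also had the highest density, 8.18 per Mb of desert.

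The desert with most regions lay between Agtr1b, a gene for an angiotensin II receptor, and Tbl1xr1, a gene for a corepressor exchange factor. It held 30 regions in 1709 kb, with folds from 3.76 to 12.1. Of these, 28 lay nearer Tbl1xr1, and the median distance from it was 339 kb. The desert between the Notch ligand gene Jag1 and Btbd3 held 28 regions in 1140 kb, or 29.8 per Mb, with folds from 4.87 to 16.3. Here regions stood along most of the gap, 16 nearer Jag1 and 12 nearer Btbd3. The Zeb2-Acvr2a desert, beside a gene for a repressor of epithelial genes and a gene for an activin receptor, also held 28 regions, but in 3697 kb, or 8.01 per Mb, with folds up to 18.8.

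In some of the 15 deserts with most regions, the regions lay mainly towards 1 flanking gene. In the desert between Slc10a2, a bile acid transporter gene, and Efnb2, the gene for ephrin-B2, 19 of 23 regions were nearer Efnb2. Between Nmbr, a neuropeptide receptor gene, and Cited2, a transcriptional coregulator gene, 20 of 21 were nearer Cited2. Between Adam34l and Fat1, the gene for an atypical cadherin, 14 of 17 were nearer Fat1. Beside Klf4, which encodes a factor of epithelial differentiation, 7 of 21 regions were nearer Klf4 and 14 were nearer Actl7b, a testis actin-like gene. Between Camk1g, a kinase gene, and the semaphorin receptor gene Plxna2, all 17 regions were nearer Camk1g. That desert also holds Mir205, a microRNA of epithelial cells.

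The other deserts among the 15 with most regions ranged from one-sided to even. The Myc-Gsdmc desert held 20 regions, 14 of them nearer the proto-oncogene Myc, and the Akr1e1-Klf6 desert 18, of which 14 were nearer Klf6. Rasgrp1-Thbs1 held 19 regions (13 nearer Thbs1, the gene for thrombospondin 1), Plk2-Actbl2 19 (11 nearer Plk2, a kinase gene), Mctp2-Rgma 19 (10 nearer Rgma) and Adamts5-N6amt1 18, with 9 nearer each gene. Klf5-Klf12, a gap of 553 kb between 2 Krüppel-like factor genes, held 17 regions, or 48.2 per Mb. Together the 15 deserts held 315 regions, 11.4% of all.

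**Figure D4:**
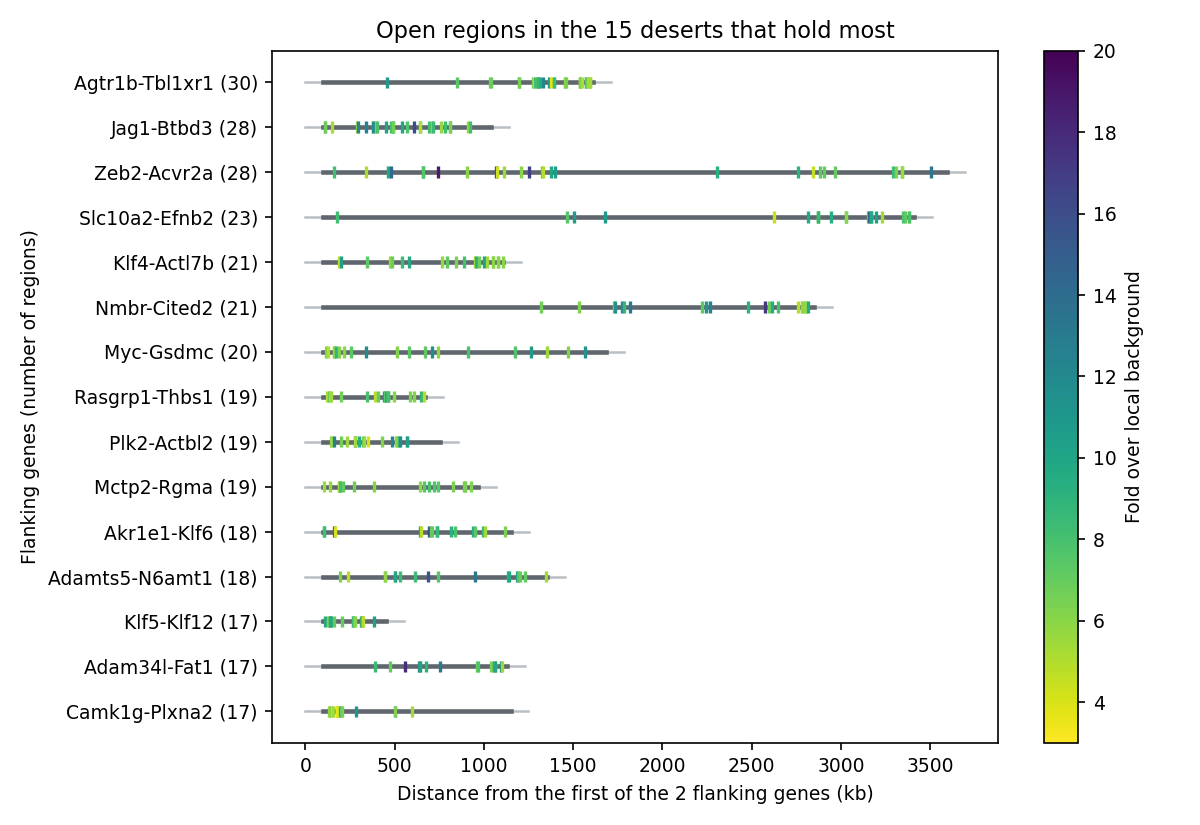
Position of each open region (ticks, coloured by fold over the local background) in the 15 deserts that hold most, as distance in kb from the first of both flanking genes (x axis), with the number of regions beside each name. Dark lines mark sequence over 100 kb from both genes. The 30 regions of Agtr1b-Tbl1xr1 crowd towards Tbl1xr1, whereas the 28 of Jag1-Btbd3 stand along the gap.

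By density the order was another. Short deserts led, since little of their sequence was over 100 kb from a gene. The P3h2-Cldn1 desert, beside the tight junction gene Cldn1, held 6 regions in 251 kb (118 per Mb of desert sequence), with folds from 5.12 to 16.4. Spring1-Med13l held 8 (82.3 per Mb), Tmx1-Frmd6 12 (76.0 per Mb), Tmem45b-Barx2 12 (66.0 per Mb) and Foxd1-Tmem174 5 (63.9 per Mb). Med13l encodes a Mediator subunit, and Barx2 and Foxd1 encode transcription factors.

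Deserts were next grouped by the genes at their edges. Genes of the KLF, TEAD, RUNX, NF-Y, AP-2, SOX and FOX families flanked 44 deserts. Of these, 28 held a region (63.6%, 95% Wilson interval 48.9 to 76.2) and 18 held 5 or more (40.9%), beside 47.7% and 14.3% of all deserts, and their pooled density was 12.3 per Mb, beside 4.02. Deserts are sparser towards their middle, so the density was also taken at 100 to 200 kb from a gene only, where it was 14.99 per Mb for these families and 7.09 for all deserts. Deserts with a region were longer than those without (median 584 and 326 kb), and the shares of the lists are not matched for length. The median gap was 561 kb for these families, against 424 kb for all deserts. In the lists that follow, it was 402 kb for Notch genes, 556 kb for other developmental factors, 614 kb for signalling genes and 457 kb for organoid markers. Some deserts stand in 2 lists, and the share of one list is no test against another.

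Among these families, Klf genes flanked deserts with up to 21 regions. Besides those at Klf4, Klf5 and Klf6 named above, Klf14-Mkln1 held 13 regions (54.2 per Mb), Klf6-Pitrm1 held 9 and Klf7-Creb1 held 6. Sox9, a gene of salivary progenitor and duct cells, stood between 2 such deserts. Gm11677-Sox9 held 13 regions, none of them closer to Sox9 than 121 kb, and Sox9-Slc39a11 held 12 with a median fold of 4.86, which is low beside the 7.19 of all desert regions. Sox2, with roles in progenitor cells of many tissues, had 12 regions towards Atp11b and 5 towards Dnajc19. Sox11-Dcdc2c held 14 regions, Prl5a1-Sox4 10 and Insc-Sox6 8, the last with a median fold of 10.8. Runx1-Setd4 held 15 regions (26.9 per Mb), 11 of them nearer Runx1. Forkhead genes flanked Pax1-Foxa2 with 11, Foxo1-Cog6 with 7, Exoc2-Foxq1 with 6 and Foxd1-Tmem174 with 5.

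Genes of the Notch pathway, in which ligands such as Jag1 activate receptors on neighbouring cells and raise targets such as Hes1, flanked 5 deserts. Of these, 4 held a region (80.0%, 95% Wilson interval 37.6 to 96.4, which includes the 47.7% of all deserts), and their pooled density was 26.8 per Mb, or 22.5 at 100 to 200 kb. Most of the 42 regions lay in Jag1-Btbd3. The desert between Opa1, a mitochondrial fusion gene, and Hes1 held 10 regions in 402 kb, 7 of them nearer Hes1, with folds from 3.67 to 11.9. The region of highest fold there stood 150 kb from Hes1. In Jag1-Btbd3, the strongest region (fold 16.3) stood 606 kb from Jag1, and the closest pair stood 108 and 109 kb from it, with folds of 7.31 and 6.85.

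Other developmental transcription factor genes flanked 67 deserts, of which 46 held a region (68.7%) and 22 held 5 or more (32.8%), at 7.50 per Mb over all and 10.8 at 100 to 200 kb. Myc had deserts on both sides, with 20 regions towards Gsdmc and 15 towards A1bg. Irx1, a homeobox gene, likewise had 14 towards Adamts16 and 8 towards Irx2, and Irx3-Irx5 held 8. Of the 14 regions of Celf2-Gata3, 13 were nearer Gata3, and all 13 of Thap1-Zfp703 were nearer Zfp703. Regions in Mpdz-Nfib (12, of which 10 nearer Nfib) and in Gm12695-Nfia (5, all nearer Nfia) had high median folds of 9.76 and 11.1. Hmga2-Msrb3, beside the architectural factor gene Hmga2, held 5 regions in 305 kb, and the strongest (fold 17.9) covered the lncRNA start shown above. Further deserts with 5 or more included those at Id4 (10 regions), Lmo4 (9), Tbx3 and Tshz1 (7 each), Bcl11a (7), and Bcl11b, Meis1 and Id2 (5 each). In several of them most regions lay away from the factor gene, with 1 of 7 nearer Tbx3, 1 of 5 nearer Id2, 1 of 5 nearer Meis1 and 4 of 10 nearer Id4.

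Signalling ligand and receptor genes flanked 30 deserts, of which 23 held a region (76.7%, 95% Wilson interval 59.1 to 88.2) and 11 held 5 or more (36.7%), at 5.41 per Mb over all and 13.5 at 100 to 200 kb. Ephrins and their receptors, which guide cells by contact, bounded long gaps: besides Efnb2, Slc4a3-Epha4 held 12 regions, Nudt12-Efna5 12 and Epha7-Map3k7 10, at 3.54 to 7.46 per Mb. Shorter gaps stood at receptor and ligand genes of other pathways. Tgfbr2-Rbms3 held 10 regions in 397 kb (50.7 per Mb), 7 of them nearer the TGF-β receptor gene Tgfbr2. Wdr11-Fgfr2 held 9, with folds from 3.07 to 14.9. Erbb4, a receptor gene of the EGF receptor family, had 8 towards Ikzf2 and 5 towards Cps1. Lyplal1-Tgfb2 held 8, Fgf9-1700129C05Rik 6 and Bmp4-Cdkn3 5.

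Marker genes of organoid cell types flanked 7 deserts, of which 6 held a region (85.7%, 95% Wilson interval 48.7 to 97.4, beside 47.7% of all deserts), at 8.62 per Mb and 17.1 at 100 to 200 kb. Besides Sox9, Alcam-Zpld1 held 8 regions, and Chrm3-Ryr2, beside the muscarinic receptor gene that drives saliva secretion, held 6, of which 5 were nearer Chrm3.

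Deserts at neuronal adhesion and synapse genes were the sparse group. Such genes flanked 82 deserts, of which 34 held a region (41.5%, 95% Wilson interval 31.4 to 52.3) and 5 held 5 or more (6.10%). Their pooled density was 0.807 per Mb, against 4.02 in all deserts. These deserts were also long, with a median gap of 1080 kb against 424 kb, but the density was low close to genes too, at 1.74 per Mb at 100 to 200 kb against 7.09. The regions present were not weak: their median fold was 8.50. Slitrk1-Slitrk6 held 12, Csmd1-Mcph1 7, Cdh11-Cdh5 6 (all nearer Cdh5, an endothelial cadherin gene), Dsel-Cntnap5a 6 and Gm15501-Tenm4 5.

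**Figure D5:**
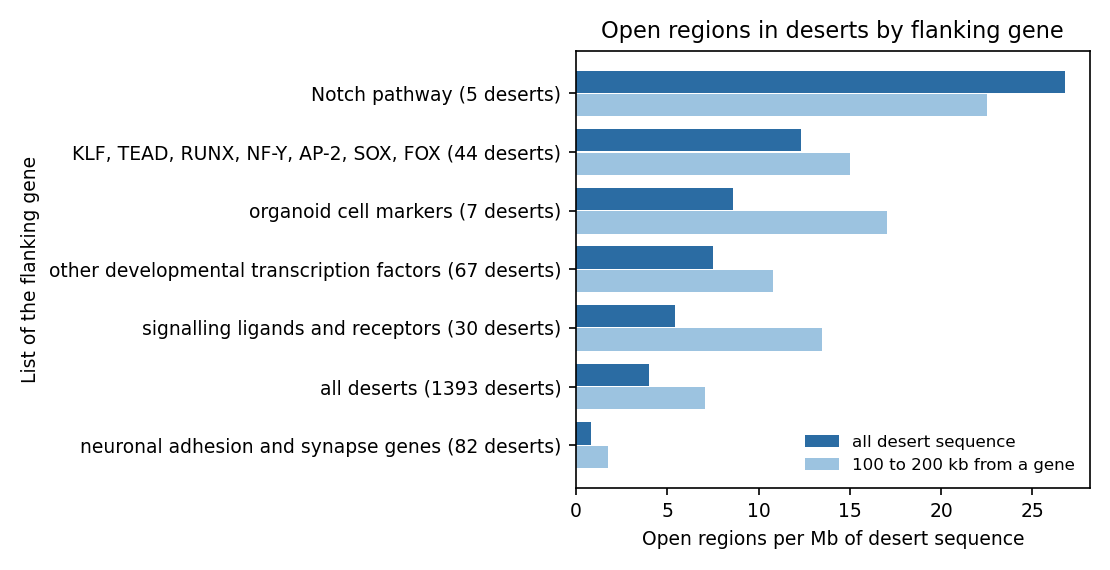
Open regions per Mb (x axis) in deserts that flank a gene of each list (y axis, with the number of deserts), over all desert sequence (dark bars) and at 100 to 200 kb from a gene (light bars). Bars carry no error, since the list is pooled; neuronal adhesion and synapse genes are lowest by either measure, at 0.807 and 1.74.

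The lists kept the order of their pooled densities among better scored regions. With an IDR score of 1000 alone, the density was 12.1 per Mb at Notch genes, 5.10 at the KLF to FOX families, 3.49 at organoid markers, 3.34 at other developmental factors, 2.28 at signalling genes, 1.71 in all deserts and 0.390 at neuronal genes.

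Most deserts had no region at all: 728 of 1393, with 37.2% of the desert sequence. They were shorter, with a median of 326 kb against 584 kb for those with a region, but long ones were among them. Of 197 deserts with over 1 Mb of sequence beyond 100 kb from genes, 69 held no region. The longest were Tenm3-Aga (3989 kb), Slc39a10-Tmeff2 (3975 kb), Cdh6-Cdh9 (3552 kb), Pabpc4l-Pcdh18 (3295 kb) and Cdh8-Cdh11 (3214 kb). Whether these stretches were closed or below detection cannot be told without the depth.

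Within deserts, some regions stood in groups, though a smaller share than among the other autosomal regions. The share that the density of desert regions alone would give was not computed. With neighbours at most 10 kb apart joined, 1067 regions (38.7%, 95% Wilson interval 36.9 to 40.6) formed 449 clusters, against 50.6% of the other autosomal regions, which are denser. Of the clusters, 332 were pairs, 78 held 3 regions, 29 held 4 and 10 held 5 or more. Clustered regions had a median fold of 6.87 and solitary ones of 7.52. A similar difference, 6.73 and 7.51, was seen in the other autosomal regions.

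The largest clusters held 6 regions each. The cluster in Camk1g-Plxna2 (chr1:193503684-193522708, GRCm38) spans Mir205 in 19.025 kb, with folds of 5.63, 5.22, 5.74, 6.64, 3.89 and 5.43 in order along the chromosome, all below the median of desert regions. The cluster in Rasgrp1-Thbs1 (chr2:117780814-117805098) spans 24.3 kb with folds from 4.89 to 11.4, and that in Fst-Mocs2 (chr13:114618495-114644503), beside the gene for the activin antagonist follistatin, 26.01 kb with folds from 5.29 to 9.90. A cluster of 5 regions in only 2.02 kb (chr16:3349898-3351913) lay before Olfr161, the first coding gene of chromosome 16. The fifth, in Xkr9-Eya1 (chr1:14000675-14012019), held 5 regions with folds from 6.23 to 9.95.

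About 1 in 5 desert regions lay in noncoding genes. An lncRNA gene contained 561 of them (20.4%), while lncRNA genes covered 10.4% of the desert sequence, and at 1 to 100 kb from coding genes the share of regions was 19.9%. The cover of lncRNA genes was not taken at 1 to 100 kb, nor by distance within deserts, where regions thin out. With genes of every noncoding type and a margin of 1 kb, the count of desert regions was 645 (23.4%, 95% Wilson interval 21.9 to 25.03). The median fold was 7.03 at noncoding genes and 7.35 away from them. The hosts with most regions lay in deserts named above. 2610035D17Rik beside Sox9, Gm31813 in Agtr1b-Tbl1xr1 and Gm34061 between Klf5 and Klf12 contained 9 regions each, and Pvt1, the lncRNA gene next to Myc, contained 8.

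MicroRNA genes, whose short products pair by their seed (bases 2 to 8) with target mRNAs, lay within 5 kb of 17 desert regions. They were 12 genes, of which 9 had mature sequences in the RefSeq table (GRCm38.p6) with 15 distinct seeds. The mature sequences of 5 well known ones follow, with the seed in capitals. They are shown for the microRNAs with 3 regions nearby and for the other members of the Mir99a group and Mir29b-1.
mmu-miR-205-5p, chr1:193507503-193507524, minus strand: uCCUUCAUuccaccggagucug
mmu-miR-99a-5p, chr16:77598940-77598961, plus strand: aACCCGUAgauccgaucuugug
mmu-let-7c-5p, chr16:77599672-77599693, plus strand: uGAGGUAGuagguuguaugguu
mmu-miR-125b-5p, chr16:77646279-77646300, plus strand: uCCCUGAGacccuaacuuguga
mmu-miR-29b-3p, chr6:31063025-31063047, minus strand: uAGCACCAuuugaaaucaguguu

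Mir205 had 3 regions within 5 kb, with folds of 5.63, 5.22 and 5.74, the nearest at 905 bp. Mir125b-2, Mir99a and Mirlet7c-1 stand together in the Usp25-Cxadr desert. Mir125b-2 had 3 regions with folds of 6.65, 4.77 and 6.26, and Mir99a had 1 with a fold of 7.19. The region 2993 bp from Mirlet7c-1 was the strongest of the group, with a fold of 12.4 and an IDR score of 1000. Mir29b-1 in Klf14-Mkln1 had regions with folds of 7.77 and 4.42. The only other microRNA gene within 1 kb of a region was Mir3970, at 64 bp from a region of fold 12.1. The remaining 6 genes, Gm51286, Mir3072, Mir466f-4, Mir5127, Mir6344 and Mir6390, had 1 region each, with folds from 4.85 to 9.62.

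The 10 desert regions of highest fold lay outside the 15 deserts with most regions. The highest fold, 26.8, was at chr14:82065144-82065697, 2042 kb from Olfm4, its nearest coding gene. Next came chr1:122357117-122357279 in Ddx18-Dpp10 (25.7) and chr8:73319620-73319770 in F2rl3-Isx (25.4), which were narrow, at 163 and 151 bp. F2rl3-Isx held another of the 10 highest, at chr8:73353289-73353888 (20.6). The other 6 were in Bod1l-Gm46911 (22.9), Triqk-Runx1t1 (22.9), Setbp1-Gm36718 (22.7), Pcmtd1-Sntg1 (20.2, at the start of Gm26901 shown above), Tenm2-Mat2b (20.1) and Pax1-Foxa2 (20.0).

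The 5 regions farthest from any coding gene stood at 2233 kb in Celf4-Pik3c3, 2042 kb in Olfm4-Pcdh17, 1711 kb in Cntnap5b-Cdh20, 1676 kb in Slc10a2-Efnb2 and 1645 kb in Dsel-Cntnap5a. Their folds were 4.74, 26.8, 5.396, 10.7 and 11.3. Just inside the limit of 100 kb were regions in Klf4-Actl7b at 100.1 kb (fold 6.09), in Cd24a-Qrsl1 at 100.2 kb (8.30) and in Tbc1d1-Gm38457 at 100.3 kb (4.54). Just outside were regions in Map3k1-Ankrd55, Atg10-Ssbp2 and Haao-Zfp36l2, each at 99.9 kb, with folds of 5.54, 7.22 and 6.45.

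The 7 regions set aside had −log10 p values from 331 to 9485 and folds from 27.0 to 68.9. They lay in Flrt2-Galc (−log10 p 9485), Pcdh7-G6pd2 (5114), Ptprd-Tyrp1 (4059 and 1771), Nxph1-Ndufa4 (2463), Manea-Epha7 (532) and Cntnap5b-Cdh20 (331), and were 147 to 410 bp wide. The highest value kept was 280, at the region of highest fold in Olfm4-Pcdh17. Between both set-aside regions of Ptprd-Tyrp1 lies 1 region that was kept (chr4:80003165-80003277, fold 7.601, −log10 p 250), the only one within 10 kb of any of them. The origin of the set-aside signal was not tested.

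What counts as a desert depends on the gene table. By name, in the GRCm39 annotation, no coding gene stood between the same flanking genes in 566 deserts with a region (2415 regions). In 16 deserts (73 regions) another coding gene did, and in 83 (249 regions) a flanking gene was not found. Among the 10 regions of highest fold, 2 lay in these 16 deserts and may therefore not be desert regions.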

How the data were processed

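ATAC-seq libraries of 4 organoid samples were sequenced as 75 bp pairs. Alignment and peak calling over all samples were done by the authors in the ENCODE pipeline for ATAC-seq. The version, filters and build used for the list are not given in the sources used here, and the processing notes name GRCm39 and HOMER. Each line of the deposited list gives an IDR score, a −log10 p-value, a −log10 q-value and a fold, which is the ratio of signal to local background, with the position of the summit. Neither its 69545 lines nor its 32011 regions equal the number of peaks in the study's methods.

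The list was read as GRCm38: on 8 of 21 chromosomes a region ended past the GRCm39 end, and 36.6% of 21262 coding start windows of GRCm38.p6 met a region, against 1.46% after a shift of 10 kb. Lines with equal coordinates were joined and kept their strongest summit. Gene positions came from RefSeq GRCm38.p6, with 20661 autosomal coding genes placed. Density used sequence between the outermost coding genes. All 3675 overlapping pairs of start windows held the same letters. The search for the nearest gene and for the gaps between genes was tested with random and placed positions. Other functions had no such test.

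Members and gene lists were chosen with earlier results of these data known. Named deserts were the 15 with most regions, the 5 densest with at least 5 regions, and those of each list with at least 5, of which 1 is not reported here. Named regions were the 10 of highest fold, the 5 farthest, the 5 largest clusters, the 3 on either side of 100 kb, those at microRNA genes and those set aside. Empty deserts, lncRNA hosts and start windows were picked after their values were seen. The planned search for motifs in all desert regions needs the GRCm38 genome and was not run; the search in start windows was added in its place after the data were seen. Scripts ran in Python 3.11.15 with matplotlib 3.10.9, scipy 1.17.1, pandas 2.3.3 and numpy 2.4.6.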

Additional observations from a re-analysis of the deposited data

How the results depend on the processing

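No paired analysis was possible because the list is pooled over samples, and for the same reason no sample could be left out. The motif search in all desert regions was not run. Of 107 alternative values, 69 stayed within a set tolerance of the value reported and 38 did not (1.5 times for counts and densities, the 95% interval of the value for shares and the median fold, a narrower limit), and Agtr1b-Tbl1xr1 stayed the desert with most regions in 10 of 13 alternatives. With a distance of 50 kb there were 4486 desert regions (14.3% of autosomal regions) in 1142 deserts, 25.99% at a noncoding gene and 41.2% in clusters. With 200 kb there were 1327 (4.23%) in 344 deserts, 18.2% at a noncoding gene and 34.4% in clusters. With deserts bounded by genes of every type there were 374 (1.19%) in 199 deserts, at 1.81 per Mb, with a median fold of 7.85, at most 9 in a desert, 27.0% in clusters and, by construction, 0.0% at a noncoding gene. Keeping the better 50% of all regions, those with the lowest q-values left 1287 (8.18%), at 1.88 per Mb, with a median fold of 9.86, at most 16 in a desert and 22.3% in clusters. An IDR score of 1000 left 1170 (8.25%), at 1.71 per Mb, with a median fold of 10.2, at most 17 in a desert and 19.9% in clusters. Counting lines gave 5908, at 8.64 per Mb, with a median fold of 5.90, up to 83 in a desert and, since summits of 1 region stand together, 91.7% in clusters. Clusters held 25.7% of regions at a spacing of 5 kb and 58.9% at 25 kb, and a margin of 5 kb put 29.9% at a noncoding gene. Where no construction is named, the cause was not tested. Alternatives chosen after seeing the data gave 2682 regions without deserts that hold another gene by name and 2737 without those before a first gene.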

Other observations

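Chromosome X, which stood outside the rule, held 46 regions in deserts of its 617 regions, and 0 of these had a −log10 p over 300. The regions before the first coding gene of a chromosome were 9 before Olfr161 on chromosome 16, 5 before Alkbh8 on chromosome 9, 3 before Vmn1r238 on chromosome 18 and 1 before Gdi2 on chromosome 13. Those on chromosome 18 had folds from 3.25 to 4.30, and those on chromosome 16 from 4.66 to 15.5. Intervals beside shares cover counting error only, regions of a desert are not independent of each other, and a pooled list of peaks holds no value for sequence that was not called.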
